A study of Homo sapiens with 24 samples.

Results

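The TRPM channels are the 8 genes TRPM1 to TRPM8, and each has a row in a table of RNA-seq read counts for 60563 named genes in 24 libraries. The members were taken from the table by gene symbol. The family was selected on the reads of 1 member, TRPM2, in these same libraries, so the values of TRPM2 below are a description and carry no test. All libraries came from NCI-H1299 (H1299), an established line of human lung cancer (non-small cell) that lacks p53. The control was H1299 with the vector only (4 libraries), and the other cells were 5 clonal lines stably expressing a plasmid-borne p53 isoform, namely Δ133p53α in the lines numbered Δ133p53α1, Δ133p53α2 and Δ133p53α8, and Δ133p53β in the lines Δ133p53β5 and Δ133p53β10. The control and all clones shared the p53 null background and a plasmid, and no age, time or drug treatment distinguishes them. Each line is 1 clone, so an effect of an isoform and a property of the clone cannot be told apart within a line. The sources do not say whether replicate libraries came from separate cultures, so p-values measure the spread between libraries, which may be technical.

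TRPM proteins are cation channels of the transient receptor potential superfamily. TRPM2 is a calcium-permeable channel opened by ADP-ribose and calcium and is known as a sensor of oxidative stress, whereas TRPM4 and TRPM5 are opened by intracellular calcium but pass monovalent cations. TRPM6 and TRPM7 join a channel permeable to magnesium, calcium and zinc to a protein kinase domain. TRPM8 is the cold and menthol receptor of sensory neurons, TRPM3 is a heat- and steroid-activated channel, and TRPM1 is needed by the ON bipolar cells of the retina.

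Libraries held 21531599 to 25381731 reads counted on genes. The sources disagree on 1 library, which is Δ133p53β10 by its title and Δ133p53β5 by the count table, so it was placed in no group (here the library of unclear clone). This left 3 libraries of Δ133p53β5 and 4 of each other line. The libraries also fell into sets that crossed the lines. In 12 libraries the deviations from the mean of each gene rose with exon length (rank correlation across genes of 0.184 to 0.3), and in the other 12 they fell (-0.267 to -0.113). The positive set held 3 control, 1 Δ133p53α1, 3 Δ133p53α2, 3 Δ133p53α8, 1 Δ133p53β5 and 1 Δ133p53β10 library. Values are therefore also given within the sets, which were defined from the data. Of the markers of the cells, KRT8 had at least 11255 reads and VIM at least 41352 in every library, whereas CDH1 had at most 1, EPCAM at most 5 and the lung marker NKX2-1 at most 14. The markers of other cell types were at 0 reads (PTPRC), at most 17 (PECAM1) and at most 2 (ALB).

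Transcripts of 4 of the 8 members, TRPM2, TRPM4, TRPM6 and TRPM7, passed the filter on low counts and were among the 18295 genes kept. Levels are given as CPM, the reads per 1000000 of the library size after TMM scaling. Divided by exon length (CPM per kb), the control cells held TRPM7 at 3.51 ± 1.15 (SD, n = 4), TRPM4 at 1.7 ± 0.64, TRPM6 at 0.82 ± 0.166 and TRPM2 at 0.0098 ± 0.00869 CPM per kb. In Δ133p53β5 the order was TRPM7 at 2.46 ± 1.2, TRPM2 at 1.59 ± 0.0587, TRPM4 at 0.871 ± 0.112 and TRPM6 at 0.467 ± 0.0415 CPM per kb (SD, n = 3). TRPM2 thus went from the lowest of the 4 levels in control to the second of them in Δ133p53β5, whereas its place in Δ133p53β10 rested on 1 library. There TRPM2 had 1.54 ± 1.35 and TRPM4 1.27 ± 0.481 CPM per kb (SD, n = 4), but TRPM4 was the higher in 3 of the 4 libraries, and without replicate 3 the means were 0.888 ± 0.391 for TRPM2 and 1.07 ± 0.339 for TRPM4 (n = 3). TRPM1, TRPM3, TRPM5 and TRPM8 were near the limit of detection.

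**Figure D1:**
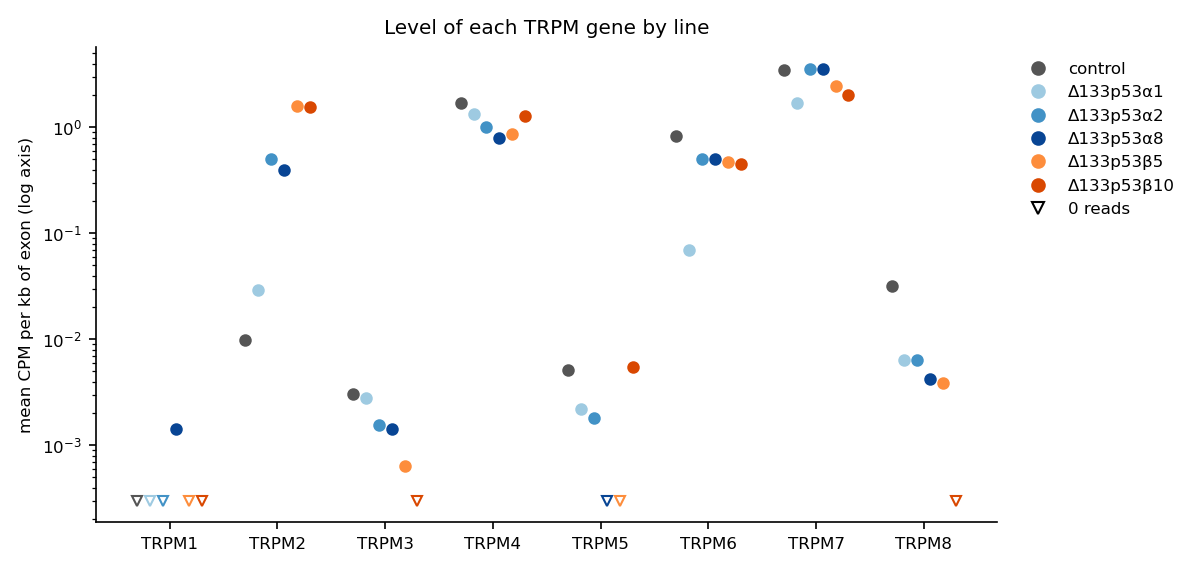
Mean level of each TRPM gene (CPM per kb of exon, log axis) in control and in the 5 lines, with 3 libraries of Δ133p53β5 and 4 of each other line. Open triangles at the foot of the plot mark lines with 0 reads. TRPM7 spanned 1.7 to 3.58 and TRPM4 0.789 to 1.7, whereas TRPM2 spanned 0.0098 to 1.59, and TRPM6 was lowest in Δ133p53α1 at 0.0695.

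The start regions of TRPM2 and TRPM6 are shown as sequence context because the levels of these members differed most between lines. TRPM2 (ENSG00000142185) lies on chromosome 21 at 44350163 to 44443081 (GRCh38, plus strand) and TRPM6 (ENSG00000119121) on chromosome 9 at 74722495 to 74888094 (minus strand). The sequences are the 250 bases before the outermost start that RefSeq gives each gene (GRCh38.p14), and since the GENCODE model of TRPM6 begins further upstream, 173 bases of its window lie inside the gene as placed above, against 0 for TRPM2. The windows are chr21:44349891-44350140 on the plus strand and chr9:74887922-74888171 on the minus strand, written 5′ to 3′, and capitals mark matches on either strand to the letters of a GC box (GGGCGG), of a TATA box (TATAAA) and of a palindromic E-box (CACGTG), which do not overlap here.
TRPM2: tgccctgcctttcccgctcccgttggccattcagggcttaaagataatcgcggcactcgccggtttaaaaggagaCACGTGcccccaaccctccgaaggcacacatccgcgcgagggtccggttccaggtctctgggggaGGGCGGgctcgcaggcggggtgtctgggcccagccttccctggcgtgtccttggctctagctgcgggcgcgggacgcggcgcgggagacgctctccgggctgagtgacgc
TRPM6: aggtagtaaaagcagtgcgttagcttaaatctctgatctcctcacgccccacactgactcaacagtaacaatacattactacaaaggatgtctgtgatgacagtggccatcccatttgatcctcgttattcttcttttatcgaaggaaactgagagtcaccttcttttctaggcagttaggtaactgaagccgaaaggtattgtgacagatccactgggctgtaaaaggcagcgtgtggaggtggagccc
The TRPM2 window held 26 CpG dinucleotides, more than in 80.4% of 35116 windows of the same length before RefSeq starts, with 1 GGGCGG and 1 CACGTG. The TRPM6 window held 6 CpG (38.1% of windows had fewer) and none of the 3 motifs. Of all windows, 42.6% held GGGCGG, 10.7% TATAAA and 6.34% CACGTG. RefSeq lists 3 starts for each gene, and the counts, which are summed over exons, do not say which was used.

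TRPM2 was close to absent in control and Δ133p53α1, intermediate in Δ133p53α2 and Δ133p53α8, and highest in the Δ133p53β lines. The control libraries held 0, 2, 1 and 3 reads of TRPM2, and those of Δ133p53α1 held 4, 5, 2 and 4. Counts were 107, 75, 47 and 39 in Δ133p53α2 and 90, 68, 41 and 35 in Δ133p53α8. Counts were 231, 218 and 230 in Δ133p53β5 and 100, 176, 424 and 103 in Δ133p53β10, and the library of unclear clone held 270. Every library of Δ133p53α2, Δ133p53α8, Δ133p53β5 and Δ133p53β10 was above every library of control and Δ133p53α1.

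Mean TRPM2 was 0.0623 ± 0.0553 CPM in control and 0.187 ± 0.0622 in Δ133p53α1 (SD, n = 4 each). It was 2.54 ± 1.13 CPM in Δ133p53α8 and 3.21 ± 2.06 in Δ133p53α2 (n = 4 each). The Δ133p53β means were 9.81 ± 8.56 CPM for Δ133p53β10 (n = 4) and 10.1 ± 0.373 for Δ133p53β5 (n = 3). Neighbours in this order were not separated beyond their spread, with the exception of the step from Δ133p53α1, whose highest library had 0.254 CPM, to Δ133p53α8, whose lowest had 1.46. Δ133p53α2 reached 6.11 CPM in 1 library, above the lowest library of Δ133p53β10 at 4.15, and Δ133p53β5 (lowest library 9.87) lay above all Δ133p53α libraries. With the library of unclear clone the mean was 11.1 ± 1.91 CPM in Δ133p53β5 (n = 4) or 10.6 ± 7.63 in Δ133p53β10 (n = 5).

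Control had only 6 reads of TRPM2 in all, so ratios to control rest on few reads. The ratio of pooled CPM was 168 in Δ133p53β5, 152 in Δ133p53β10, 49.7 in Δ133p53α2 and 42 in Δ133p53α8, and it was 3.12 in Δ133p53α1, from 15 reads against 6. Δ133p53β10 replicate 3 held 424 of the 803 reads of its line, and without it the ratio was 91.7 and the mean 5.65 ± 2.49 CPM (SD, n = 3). Control replicate 4 held 3 of the 6 control reads, and without it the ratios were 257, 232, 75.9, 64.2 and 4.76, in the order given. In a bulk sample, more TRPM2 RNA in each cell and more cells that hold it cannot be told apart.

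The order of the lines was looked at within the library sets. In the positive set TRPM2 was 4.15 to 9.87 CPM in the Δ133p53β libraries and 0.165 to 3.83 in the Δ133p53α libraries, which did not overlap. In the negative set the ranges were 4.28 to 22.3 and 0.112 to 6.11 CPM, which did overlap. Control was at most 0.127 CPM in the positive set and at 0 in the negative set.

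TRPM2-AS, an antisense RNA gene inside TRPM2 (chromosome 21, 44414588 to 44425272, minus strand), had 6 reads in the 24 libraries, at most 2 in any of them and 0 in control. The libraries were strand-specific, but the strand setting of the read counting is not given in the sources used here, so reads of the sense and antisense genes cannot be told apart with certainty. The nearest tested genes to TRPM2 were CFAP410 before it (116 to 383 reads) and LRRC3 after it (26 to 150 reads), and neither was called in any line against control. LRRC3 in Δ133p53α1 had an adjusted p of 0.0357 in the edgeR quasi-likelihood test, with a log2 fold change of -1.05, under the threshold of 1.5. The 4 other nearest genes had at most 3 reads in a library.

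TRPM6, the magnesium-permeable channel-kinase known from the distal nephron and the colon, was called lower than control in 1 clone. Reads of TRPM6 were 159, 213, 170 and 204 in control but 36, 7, 5 and 8 in Δ133p53α1. The other Δ133p53α lines had 63, 119, 119 and 121 (Δ133p53α2) and 121, 70, 108 and 135 reads (Δ133p53α8). The Δ133p53β lines had 109, 95 and 85 (Δ133p53β5) and 150, 72, 59 and 91 reads (Δ133p53β10), and the library of unclear clone had 69. No Δ133p53α1 library reached the lowest library of any other line.

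As means, TRPM6 was at 7.53 ± 1.52 CPM in control and 0.639 ± 0.568 in Δ133p53α1 (SD, n = 4 each). It was at 4.62 ± 0.693 CPM in Δ133p53α2, 4.64 ± 1.03 in Δ133p53α8, 4.29 ± 0.382 in Δ133p53β5 (n = 3) and 4.15 ± 1.41 in Δ133p53β10. The last 4 means differed by less than the spread between replicates. Control ranged from 6.1 to 9.06 CPM, above the highest library of Δ133p53α2 (5.12), Δ133p53α8 (5.64) and Δ133p53β5 (4.66), and overlapped with Δ133p53β10, whose highest library had 6.22.

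Against control, the log2 fold change of TRPM6 in Δ133p53α1 was -3.53 (SE 0.406, 95% interval -4.37 to -2.69, edgeR adjusted p = 9.97e-06). Without Δ133p53α1 replicate 1, the highest of its libraries, it was -4.38 (edgeR adjusted p = 7.62e-08). The libraries left in Δ133p53α1 were then all of the negative set, in which TRPM6 was lower in each line. Genes were called where the adjusted p was under 0.05 and the log2 fold change 1.5 or more, up or down, and TRPM6 was the 1 called member of this comparison, in which 2.58% of all tested genes were called. By the same edgeR test the log2 fold change was -0.72 for Δ133p53α2 (adjusted p = 0.329) and -0.71 for Δ133p53α8 (adjusted p = 0.353). It was -0.82 for Δ133p53β5 (adjusted p = 0.226) and -0.90 for Δ133p53β10 (adjusted p = 0.112). The last passed the adjusted p, below the fold threshold, under 3 of 32 alternatives, DESeq2 among them (adjusted p = 0.0451; range 0.0251 to 0.275). No TRPM member other than TRPM2, which was not tested, was called in these lines, where 2.81%, 2.53%, 4.27% and 4.73% of genes were called. Of the 3 tested members, 1, 1, 2 and 1 were at an unadjusted p under 0.05 in these lines, and DESeq2 called 0 as well. With the library set as a term, 2 of these 4 values passed the adjusted p alone (edgeR, -0.74 with 0.0421 in Δ133p53α2 and -0.74 with 0.0465 in Δ133p53α8), and Δ133p53α1 stayed at -3.29 (adjusted p = 5.39e-08). The 5 comparisons share the 4 control libraries.

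The difference between Δ133p53α1 and the other clones was tested directly. TRPM6 was higher than in Δ133p53α1 by 2.81 on the log2 scale in Δ133p53α2 (SE 0.399, edgeR adjusted p = 0.000591; 0.552% of genes called) and by 2.82 in Δ133p53α8 (SE 0.398, adjusted p = 0.000562; 0.519% called). The values against the Δ133p53β lines, a comparison added after the data were seen, were 2.71 in Δ133p53β5 (SE 0.414, edgeR adjusted p = 0.000907; 1.34% called) and 2.63 in Δ133p53β10 (SE 0.397, adjusted p = 0.000523; 1.15% called). In fits of the compared lines alone these values were 2.64 to 2.80, and none passed the adjusted p (edgeR, 0.0527 to 0.123). Without Δ133p53α1 replicate 1 they were 3.68, 3.68, 3.57 and 3.52 (edgeR adjusted p of 1.61e-06 to 3.87e-06), with only libraries of the negative set left in Δ133p53α1. Between Δ133p53α8 and Δ133p53α2 the TRPM6 difference was 0.01 (95% interval -0.73 to 0.75; 0.137% of genes called), and between Δ133p53β10 and Δ133p53β5 it was -0.07 (-0.87 to 0.73). The latter comparison called 0% of genes, that is 0 by edgeR and 0 by DESeq2, with 370 at an unadjusted p under 0.05.

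The mean of the Δ133p53β lines was compared with the mean of the Δ133p53α lines, the contrast of the isoforms. Its p-values use the spread between libraries and not between clones, so they do not measure an isoform effect across clones. The TRPM6 log2 difference was 0.80 (SE 0.241, 95% interval 0.29 to 1.30, edgeR adjusted p = 0.063), under the fold threshold, and the Δ133p53α mean includes Δ133p53α1. It passed the adjusted p but not the fold threshold under 5 of 32 alternatives, with 1.05 and 0.000311 with the library set as a term, 0.00909 by DESeq2, 0.0454 and 0.045 with the library of unclear clone in either Δ133p53β line, and 1.09 and 0.000556 without Δ133p53α1 replicate 1. Without the set as a term, the positive TRPM6 difference rests on Δ133p53α1. The means of Δ133p53α2 and Δ133p53α8 (4.62 and 4.64 CPM) lay slightly above those of Δ133p53β5 and Δ133p53β10 (4.29 and 4.15 CPM). The positive set, in which TRPM6 was higher in each line, held 3 libraries each of Δ133p53α2 and Δ133p53α8 and 1 of each Δ133p53β line. With the set as a term the order was the other way. The log2 fold changes against control were then -0.74 in Δ133p53α2 and Δ133p53α8, -0.50 in Δ133p53β5 and -0.58 in Δ133p53β10 (SE 0.234 to 0.266). Between the isoforms TRPM4 differed by 0.05 (edgeR adjusted p = 0.952) and TRPM7 by -0.33 (edgeR adjusted p = 0.762). No tested member was called by edgeR or DESeq2, and 1 of 3 (TRPM6) was at an unadjusted p under 0.05, beside 1.39% of all tested genes called.

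The low level of TRPM6 in Δ133p53α1 was seen in both library sets. In the positive set, control had 6.36 to 9.06 CPM, the Δ133p53α1 library 1.49 and the other clones 4.56 to 6.22. In the negative set, the control library had 6.1 CPM, the 3 Δ133p53α1 libraries 0.279 to 0.434 and the other clones 3.1 to 4.32. Within each of the 6 lines every positive library was above every negative library. The part of the library sets in the smaller differences from control was not tested beyond the fit with the set as a term.

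The tested neighbours of TRPM6 were RORB before it (3 to 62 reads) and C9orf40 after it (636 to 2141 reads). Neither was called, and in Δ133p53α1 their log2 fold changes against control were 0.17 and 0.11 (edgeR adjusted p of 0.829 and 0.746). C9orf40 in Δ133p53β5 was 0.97 higher on the log2 scale (adjusted p = 0.011), under the fold threshold.

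**Figure D2:**
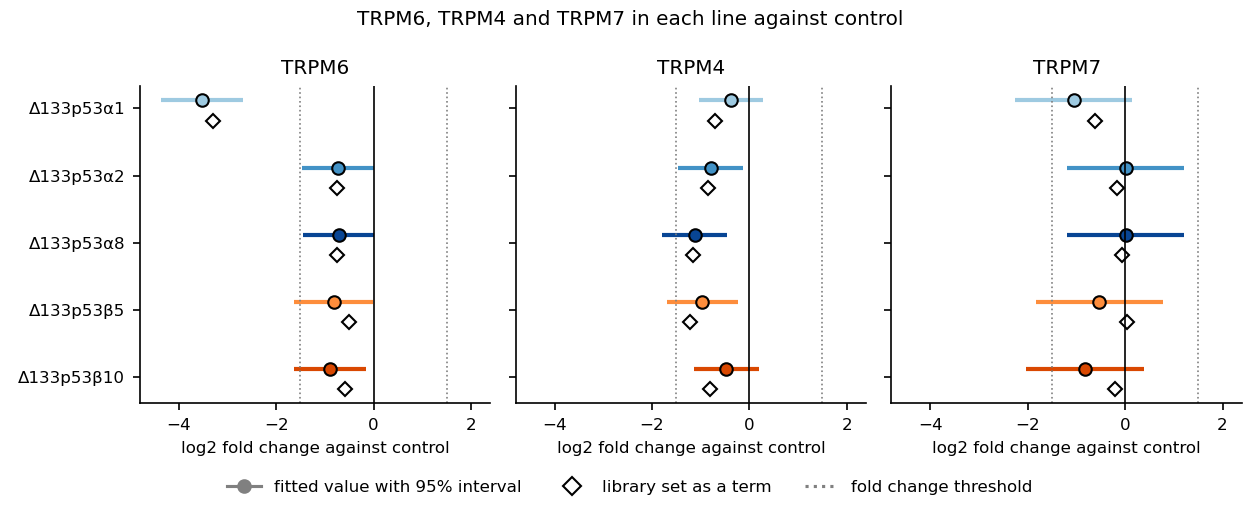
Log2 fold change of TRPM6, TRPM4 and TRPM7 in each line against control, from the edgeR fit of 23 libraries. Circles are fitted values with 95% intervals, diamonds are the values with the library set as a term, and dotted lines mark the fold change threshold of 1.5 in each direction. The interval of TRPM6 in Δ133p53α1, -4.37 to -2.69, lies wholly beyond the threshold, and no other fitted value reaches it.

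TRPM7, the widely expressed channel-kinase and closest relative of TRPM6, was the most abundant member. Reads of TRPM7 were 704, 901, 1612 and 1140 in control, 1208, 231, 211 and 202 in Δ133p53α1, 230, 981, 1619 and 1348 in Δ133p53α2 and 1007, 438, 1246 and 1472 in Δ133p53α8. They were 1104, 569 and 402 in Δ133p53β5, 1123, 365, 134 and 687 in Δ133p53β10 and 281 in the library of unclear clone. The lines overlapped, and the spread within a line was as large as that between lines.

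Mean TRPM7 was highest in Δ133p53α8 at 44.3 ± 17.7 CPM, Δ133p53α2 at 44.1 ± 22.9 and control at 43.4 ± 14.2 (SD, n = 4 each). It was 30.5 ± 14.9 CPM for Δ133p53β5 (n = 3), 24.9 ± 16.9 for Δ133p53β10 and 21.1 ± 19.2 for Δ133p53α1 (n = 4 each), and all neighbours in this order overlapped. The log2 fold change of Δ133p53α1 against control was -1.06 (95% interval -2.27 to 0.15, edgeR adjusted p = 0.241). It was 0.01 for Δ133p53α2 (-1.19 to 1.20) and 0.01 for Δ133p53α8, -0.53 for Δ133p53β5 (-1.84 to 0.78) and -0.83 for Δ133p53β10 (-2.04 to 0.38). The intervals for Δ133p53α1 and the Δ133p53β lines reach past the threshold of 1.5. With the library set as a term the values were -0.62, -0.17, -0.07, 0.03 and -0.21, in the order of the lines just given, and those of Δ133p53α2, Δ133p53α8 and Δ133p53β5 changed sign. In Δ133p53α1 the value rests on 1 library, the only one of the line in the positive set. Without it the log2 fold change was -1.92 and passed both thresholds (edgeR adjusted p = 0.0279). That fit sets negative libraries of Δ133p53α1 alone against a control mostly of the positive set, so it cannot separate the line from the sets. With all its libraries and the set as a term, the value of -0.62 had an edgeR adjusted p of 0.257.

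TRPM7 followed the library sets, with 38.3 to 66.5 CPM in the 12 positive libraries (median 49) and 7.04 to 28.5 CPM in the 12 negative libraries (median 16.1), without overlap; the sets were defined over all genes with a length, the members included. It has the longest exon length of the 4 members that passed the filter, 12.38 kb beside 9.193 for TRPM6, 6.604 for TRPM4 and 6.36 for TRPM2. TRPM4 went the other way, with lower values in the positive set in 5 of 6 lines. TRPM2 was lower in the positive set in 3 lines and higher in 1, without overlap, and overlapped in the others.

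TRPM4, the calcium-activated monovalent cation channel, had its highest mean in control. Its reads were 340, 185, 436 and 180 in control, 154, 148, 163 and 230 in Δ133p53α1, 182, 107, 145 and 136 in Δ133p53α2 and 114, 165, 106 and 93 in Δ133p53α8. They were 122, 145 and 119 in Δ133p53β5, 124, 197, 234 and 159 in Δ133p53β10 and 272 in the library of unclear clone. Each mean of a clone was below that of control, but control itself spanned 7.6 to 16.3 CPM.

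Mean TRPM4 was ordered from 11.2 ± 4.22 CPM in control through Δ133p53α1 at 8.87 ± 2.66, Δ133p53β10 at 8.39 ± 3.18 and Δ133p53α2 at 6.61 ± 2.58 to Δ133p53β5 at 5.75 ± 0.74 and Δ133p53α8 at 5.21 ± 1.67 (SD, n = 3 for Δ133p53β5 and 4 for the rest), with overlap between neighbours. In Δ133p53α8 the log2 fold change was -1.12 (SE 0.322, 95% interval -1.79 to -0.45, edgeR adjusted p = 0.0495), which passed the adjusted p but not the fold threshold. It kept an adjusted p under 0.05 in 7 of 32 alternatives, with a range of 0.00292 to 0.237, the highest without control replicate 3. The values were -0.97 for Δ133p53β5, -0.79 for Δ133p53α2, -0.47 for Δ133p53β10 and -0.38 for Δ133p53α1 (edgeR adjusted p of 0.1 to 0.421). With the library set as a term, 4 of the 5 lines passed the adjusted p (edgeR, 0.00292 to 0.0381), at -0.84, -1.16, -1.22 and -0.81 in Δ133p53α2, Δ133p53α8, Δ133p53β5 and Δ133p53β10, and none passed the fold threshold.

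The 4 remaining members did not pass the filter. TRPM8 had 5, 4, 16 and 1 reads in the control libraries and 14 reads in the 19 grouped clone libraries, 7 of which had a read. Control therefore averaged 0.251 ± 0.241 CPM (SD, n = 4), with most reads from 1 library. The ratio of pooled CPM in clones to control was 0.129 (exact 95% interval 0.0622 to 0.256, counting error only), and 0.245 without control replicate 3, which held 16 of the 26 control reads. Δ133p53β10 had 0 TRPM8 reads against 26 in control, and the ratio to control allowed by this count was at most 0.173, or 0.372 without that control library.

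TRPM3 had 19 reads in the 24 libraries and at most 4 in any of them. TRPM5 had 8 reads (at most 2), and TRPM1 had 1 read, in a Δ133p53α8 library. A library with 0 reads could hold up to 3 at this depth, so differences in these members were not detectable.

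Genes that work beside the members were taken from lists. The first list held 19 other TRP channels (the TRPC, TRPV, TRPA, mucolipin and polycystin groups), of which 11 were tested. None of the 11 was called in any comparison by edgeR or DESeq2, with 0 to 3 of them at an unadjusted p under 0.05, and their log2 fold changes against control ranged from -1.19 to 1.04. Over all tested genes edgeR called 2.53% to 4.73% against control and 0% to 1.39% in the other comparisons. With so few genes, 0 of 11 does not set the list apart from these shares. The medians over the 11 were 0.00, 0.03, -0.06, -0.08 and -0.26, for Δ133p53α1, Δ133p53α2, Δ133p53α8, Δ133p53β5 and Δ133p53β10, beside -0.08, 0.01, -0.02, -0.03 and -0.05 over all tested genes.

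The second list held 30 enzymes of ADP-ribose and NAD metabolism, the pathway that makes and removes the ligand of TRPM2, and 28 were tested. In the order Δ133p53α1, Δ133p53α2, Δ133p53α8, Δ133p53β5 and Δ133p53β10, 2, 4, 3, 4 and 3 of them were called against control, 1 of them higher in each line, where 2.58%, 2.81%, 2.53%, 4.27% and 4.73% of all tested genes were called. The higher gene was NMNAT3, an NAD-synthesizing enzyme, with log2 fold changes of 1.76, 2.74, 2.75, 2.49 and 2.50 in that order (edgeR adjusted p of 5.09e-05 to 0.00651). ADPRH, which removes ADP-ribose from arginine residues, was lower in all 5 lines, with 55 to 91 reads in the control libraries and at most 1 in any grouped library of the clones. The list was chosen with earlier results of these data known, so its counts do not measure an excess over all genes. BST1, which makes cyclic ADP-ribose, fell by 1.77 on the log2 scale in Δ133p53α2, fell by 1.89 in Δ133p53β5 and fell by 1.81 in Δ133p53β10 (edgeR adjusted p of 0.000502 to 0.00123). NMNAT2, another NAD-synthesizing enzyme, fell by 2.55 in Δ133p53α2 and fell by 2.25 in Δ133p53α8, and SARM1, an NAD hydrolase, fell by 1.59 in Δ133p53β5. Lines without a call could also be low. BST1 averaged 1.02 CPM in Δ133p53α1 and 1.07 in Δ133p53α8, against 2.54 ± 0.588 in control. SARM1 averaged 3.46 CPM in Δ133p53β10, where it was not called, beside 2.93 in Δ133p53β5 and 8.74 ± 0.898 in control. SARM1 was -1.45 without Δ133p53β5 replicate 3 and -1.41 with the library of unclear clone in that line, under the fold threshold. NMNAT3 in Δ133p53α1 was 1.49 without control replicate 1, also under it, and had an edgeR adjusted p of 0.0705 in pairwise fits. Reads were few, with 3 to 13 of NMNAT3 in control libraries and 2 to 6 (Δ133p53α2) or 2 to 7 (Δ133p53α8) of NMNAT2. The medians of the list lay between -0.10 and 0.01. Between the isoforms 0 genes of the list were called by edgeR and 0 by DESeq2, with 4 at an unadjusted p under 0.05. Over all tested genes edgeR called 1.39% there, so 0 of 28 does not set the list apart.

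The third list held 25 genes of magnesium handling, the ion that TRPM6 and TRPM7 carry, and 20 were tested. In Δ133p53α1, where TRPM6 was low, none was called by edgeR or DESeq2 (4 were at an unadjusted p under 0.05), beside 2.58% of all tested genes. With 20 genes, 0 calls does not set the list apart from that share. The log2 fold changes ran from -1.49, just short of the fold threshold, to 0.34. Δ133p53α2 and Δ133p53α8 also had 0 calls by edgeR, beside 2.81% and 2.53% of all tested genes. In each of them 4 were at an unadjusted p under 0.05, and DESeq2 called 1 and 0. Each Δ133p53β line had 2 of 20, both lower, beside 4.27% of all tested genes in Δ133p53β5 and 4.73% in Δ133p53β10. CNNM4, a magnesium transporter, fell by 1.53 in Δ133p53β5 and fell by 1.58 in Δ133p53β10, and PTP4A3, a phosphatase that binds CNNM proteins, fell by 2.21 and fell by 2.10 in the same order (edgeR adjusted p of 0.00209 to 0.0259 for both genes). Their means were also below control in the Δ133p53α lines, where edgeR called neither. CNNM4 averaged 17.5 CPM (SD 4.01) in control, 6.68, 9.29 and 9.03 in Δ133p53α1, Δ133p53α2 and Δ133p53α8, and 6.14 and 6.01 in the Δ133p53β lines. PTP4A3 averaged 15.5 CPM (SD 9.87) in control, 10.2, 4.61 and 6.74 in the Δ133p53α lines, and 3.37 and 3.77 in the Δ133p53β lines. Both genes lost their call in each Δ133p53β line when some single libraries were left out. For CNNM4 these were control replicate 2 in both lines, control replicate 3 and the line's own replicate 3 in Δ133p53β5, and the line's own replicate 3 in Δ133p53β10. For PTP4A3 they were control replicate 3 in both lines, each of the 3 Δ133p53β5 libraries, and Δ133p53β10 replicates 2 and 4. Without control replicate 3, PTP4A3 was -1.67 in Δ133p53β5 and -1.51 in Δ133p53β10 (edgeR adjusted p of 0.123 and 0.113), and without control replicate 2, CNNM4 was -1.39 and -1.41. With the library set as a term, CNNM4 was -1.21 in Δ133p53β5 and -1.27 in Δ133p53β10, both under the fold threshold. In Δ133p53β5 it was also -1.49 with no filter and -1.49 with the library of unclear clone in that line. PTP4A3 in Δ133p53β10 lost its call in pairwise fits (edgeR adjusted p = 0.0998). The medians of the list against control lay between -0.23 and 0.02.

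The genes whose levels followed the members most closely were found by Pearson correlation of log2 CPM over the 23 grouped libraries. For TRPM2 they were AOPEP (r = 0.906), HSPB8 (0.905), CTDSPL (0.88), LINC02575 (0.879) and SUN3 (0.878). HSPB8, which encodes a small heat shock protein, had means of 0.159 ± 0.148 CPM in Δ133p53α1, 0.471 ± 0.223 in control, 4.33 ± 1.34 and 5.49 ± 0.208 in Δ133p53α2 and Δ133p53α8, and 9.06 ± 0.836 and 10.9 ± 2.05 in Δ133p53β5 and Δ133p53β10 (SD, n = 3 for Δ133p53β5 and 4 for the rest). For TRPM6 they were TTN (0.964), TTN-AS1 (0.957), STOM (0.896), TUBGCP5 (0.889) and ENSG00000270574 (0.888). TTN, which encodes the sarcomere protein titin, was at 16.6 ± 6.41 CPM in control, 1.47 ± 1.05 in Δ133p53α1 and 8.42 to 12 as means of the other lines, and TTN-AS1 overlaps it on the opposite strand. Libraries of a line and of a library set share their deviations, so these coefficients describe the libraries and are given without a p-value.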

How the data were processed

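Poly(A) RNA of H1299 vector control cells and 5 clonal lines was sequenced in 24 libraries made with a strand-specific kit. Reads were trimmed by the authors, aligned with HISAT2 (GRCh38) and counted on exons per gene with featureCounts. The authors deposited read counts per gene, without normalization. How featureCounts treated strand and multi-mapped reads is not given in the sources used here. The table has 60564 rows, and 1 row without a name (0 reads) was left out. Over 33 pairs of libraries of a line, chi-square divided by its degrees of freedom was at least 15.8, so no grouped library repeats another of its line. The library of unclear clone and pairs across lines were not compared. Positions and exon lengths came from GENCODE, to which 98.8% of symbols matched, and promoter sequences from RefSeq (GRCh38.p14).

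Tests were run in R 4.3.3 with edgeR 4.0.16 (TMM, filterByExpr with a minimum count of 10, a quasi-likelihood fit of 6 groups and 23 libraries with 17 residual degrees of freedom, Benjamini-Hochberg adjustment over 18295 genes). The procedure was first tested on simulated data. CPM used TMM factors over all 24 libraries, and log2 CPM a prior count of 2. TRPM8 ratios have exact 95% counting intervals, and reads without molecular identifiers are not independent molecules. Alternatives were DESeq2 1.42.0, RLE factors, no filter, a mean of 1 CPM, a replicate block, pairwise fits, the library set as a term, the library of unclear clone counted in either Δ133p53β line, and leaving out each library. Named genes were the 8 members, TRPM2-AS, the 3 nearest genes on each side and the 5 most correlated genes for TRPM2 and for each called member, and the called genes of the lists. The members and lists were chosen with earlier results of these data known. The level of the introduced gene is not reported here.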

Additional observations from a re-analysis of the deposited data

Results flagged for a closer look

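Of 24 groups of 4 libraries, over TRPM2, TRPM4, TRPM6, TRPM7 and TRPM8, examined for a library far from the others, 3 stood out, where chance gives about 1 in 20. They were TRPM6 in Δ133p53α1, with 1 library at 1.49 CPM above the other 3, TRPM6 in Δ133p53α2, with 1 library at 3.6 CPM below the other 3, and TRPM7 in Δ133p53α1, with 1 library at 49.9 CPM above the other 3. Each of these libraries was the 1 library of its line in its library set. The clones differed in TRPM6 by tests of the differences themselves in the main fit, Δ133p53α1 being lower than Δ133p53α2 by 2.81, Δ133p53α8 by 2.82, Δ133p53β5 by 2.71 and Δ133p53β10 by 2.63 on the log2 scale. In pairwise fits none of these passed the adjusted p (edgeR, 0.0527 to 0.123). The comparisons with the Δ133p53β lines were added after the data were seen. The library of unclear clone, which entered no comparison, held 270 reads of TRPM2, against at most 3 in a control library and 100 to 424 in the libraries of the Δ133p53β lines.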

How the results depend on the processing

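Under the alternatives, 995 recomputed results were unchanged. Counts of called members stayed equal, and fold changes kept their direction and their call, which needs both thresholds. The adjusted p alone could still cross 0.05 among these, as for TRPM4 in Δ133p53α8. Of the other results, 19 changed sign, 5 counts moved, 4 values were no longer called and 1 became called. TRPM6 in Δ133p53α1 against control was called under all of them, with log2 fold changes of -4.38 to -3.28 when single libraries were left out (edgeR adjusted p of 7.62e-08 to 0.000105) and of -3.66 to -3.29 otherwise, up to an adjusted p of 0.00569. The count of called members in that comparison, 1, ranged from 1 to 2 when libraries were left out, and so did that between Δ133p53α8 and Δ133p53α1. Both were 2 without Δ133p53α1 replicate 1, where TRPM7 against control was -1.92 (edgeR adjusted p = 0.0279). That fit left Δ133p53α1 only libraries of the negative set. In pairwise fits the counts between Δ133p53α2 or Δ133p53α8 and Δ133p53α1 fell to 0, with TRPM6 at 2.80 and 2.80 (adjusted p of 0.123 and 0.0936), 2.69 for Δ133p53β5 and 2.64 for Δ133p53β10 (0.0527 and 0.122), and the cause was not tested. With no filter, 1 member was called in Δ133p53β10, TRPM8 (adjusted p = 0.0276), which the filter removes in the main result.

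The values that changed sign belonged to differences that were not called. TRPM7 in Δ133p53α2 was -0.00 with a mean of 1 CPM, -0.17 with the library set as a term and -0.25 to 0.31 with libraries left out. TRPM7 in Δ133p53α8 was -0.00, -0.07 and -0.17 to 0.25 under the same settings, TRPM7 in Δ133p53β5 was 0.03 and between the isoforms 0.20 with the set as a term, and TRPM4 between the isoforms was -0.11 with the set and -0.08 to 0.14 with libraries left out. Deviations of same-numbered libraries had correlations of -0.88 to 0.889 in 55 pairs (median 0.008, 23 over 0.1). The library sets cross the replicate numbers and enter these deviations, so whether the numbers pair the samples cannot be told from them. With the replicate block TRPM6 in Δ133p53α1 was -3.66 (adjusted p = 3.06e-05), TRPM7 in Δ133p53α8 reversed to -0.09, the calls of members did not change, and the count over all genes between Δ133p53α8 and Δ133p53α2 fell from 25 to 15.

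Counts over all genes moved more. A mean of 1 CPM, which tests fewer genes, gave 269, 294, 274, 486 and 523 calls against control in Δ133p53α1, Δ133p53α2, Δ133p53α8, Δ133p53β5 and Δ133p53β10 in place of 472, 514, 463, 782 and 866, and 125 in place of 254 between the isoforms. It gave 64 and 55 for Δ133p53α2 and Δ133p53α8 against Δ133p53α1 in place of 101 and 95. Pairwise fits gave 295 in Δ133p53α2 and 429 in Δ133p53β10 against control, and 22, 38 and 9 for Δ133p53α2 against Δ133p53α1, Δ133p53α8 against Δ133p53α1 and Δ133p53α8 against Δ133p53α2, where DESeq2 gave 191, 148 and 48 and the set term 47 for the last. Leaving out libraries gave 314 to 1606 in Δ133p53α1 (1606 without its replicate 1), 460 to 810 in Δ133p53β5 (460 without its replicate 3), 595 to 1301 in Δ133p53β10 (1301 without its replicate 1), 61 to 163 for Δ133p53α2 and 49 to 1343 for Δ133p53α8 against Δ133p53α1, and 12 to 33 for Δ133p53α8 against Δ133p53α2.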
